A study of Mus musculus with 6 samples.

Results

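The Ifitm family was followed across RNA-seq libraries of lineage-negative (Lin-) cells from a mouse model of blast crisis chronic myeloid leukemia (bcCML), the acute stage of a leukemia driven by the BCR-ABL fusion kinase. The 4 members are Ifitm1, Ifitm2, Ifitm3 and Ifitm6, picked by name from the 36083 genes of the table. They were chosen by someone who had seen how the WT and Sdc1-/- groups of these libraries differ, so their differences are given as a description, with no test. The study asked how loss of syndecan-1 (Sdc1), a heparan sulfate proteoglycan of the cell surface, changes the transcriptome of this leukemia. KLS cells (Kit+ Lin- Sca1+, the stem and progenitor fraction of bone marrow) came from WT or Sdc1-/- donors, both on the B6 background. In both groups they were given both BCR-ABL and NUP98-HOXA9, a second fusion oncogene, by infection, were sorted for cells carrying both and were transplanted into NSG mice, which lack T, B and NK cells of their own. Lin- leukemic cells were sorted from the spleens once all recipients had been taken at the same time. Each group has 3 libraries. The labels give no age or sex, the general methods name another recipient strain than the labels, and no source says clearly that each library of a group came from its own mouse. One legend of the study describes the WT libraries as technical replicates. Every SD and p-value here may therefore measure technical spread only.

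Ifitm proteins are small membrane proteins of the CD225 family. They sit in the plasma membrane and in endosomes, where they hinder the fusion of enveloped viruses with the host membrane. Ifitm1, Ifitm2 and Ifitm3 are induced by type I and type II interferons in many cell types and are also present without interferon in stem and progenitor cells. Ifitm6 is a mouse relative known mainly from myeloid cells.

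Values were TPM, a level that accounts for transcript length, which the authors had rescaled between libraries. Per library they summed to between 1048875 and 1058263 in WT and to between 944973 and 951814 in Sdc1-/-. Read depth is unknown. A gene was tested where its mean over the 6 libraries reached 1. On log2(value + 1), limma called 60.7% of 12155 tested genes at an adjusted p of 0.05 (Benjamini-Hochberg), 3564 (29.3%) higher and 3810 (31.3%) lower in Sdc1-/-. When the libraries were set to an equal sum of 1000000, the median log2 fold change of all tested genes moved by 0.13, and 5286 genes were higher and 2380 lower, so the share of lower calls went from 51.7% to 31%. Sdc1 mRNA went against the labels. Its values were 1.75, 1.21 and 1.51 in WT, against 3.85, 3.80 and 4.12 in the Sdc1-/- libraries (log2 fold change 0.99, SE 0.093, adjusted p = 0.00012 by limma). As the study describes it, the knockout allele has its signal peptide sequence disrupted so that mature protein does not reach the cell surface, and the deletion was checked in the mice by PCR of genomic DNA and in the leukemia by staining. Whether the allele still gives transcript was not tested. The groups are therefore named by their labels throughout. The summed level of 4 Y-linked genes was 0.276 to 0.308 in WT and 68.1 to 78.4 in Sdc1-/-, so the sex of the cells and the genotype cannot be told apart in any difference below. Most markers of B cells and of T cells had means below 1, such as Cd79a (0.0543 in WT and 0.0631 in Sdc1-/-) and Cd3e (0 and 0.0197), but Cd79b (2.29 and 2.12) and Trac (1.09 and 1.65) did not. Of the genes listed for NK cells, Nkg7 (340 and 286) and Klrb1c (7.03 and 6.37) were present, while Ncr1 was at 0.011 and 0.00789. The lineage antigens of the granulocyte series were present, with Ly6g at 8.77 in WT and 1.97 in Sdc1-/-, and Itgam at 23.6 and 7.33.

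The 4 genes lie together on chromosome 7 within 63.1 kb (GRCm38, GENCODE M21 annotation). Ifitm2 (ENSMUSG00000060591) is at chr7:140954837-140955987 on the minus strand and Ifitm1 (ENSMUSG00000025491) at chr7:140967221-140969825 on the plus strand. Ifitm3 (ENSMUSG00000025492) is at chr7:141009586-141010770 and Ifitm6 (ENSMUSG00000059108) at chr7:141015699-141017924, both on the minus strand. Ifitm2 and Ifitm3 have 2 exons each, and transcripts of Ifitm1 and Ifitm6 have up to 3. Over the coding sequences, Ifitm1, Ifitm2 and Ifitm3 are 80.9% to 82.1% identical to each other, whereas Ifitm6 is 65.7% to 68.8% identical to the others. The coding sequences hold 106 codons for Ifitm1, 144 for Ifitm2, 137 for Ifitm3 and 124 for Ifitm6, stop codon left out.

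The promoter windows are shown because the 4 neighbours differed in how far their levels moved, and the letters let a reader compare them. All 4 genes matched the RefSeq promoter table of GRCm38.p6, which holds 250 bases before and 50 after each start. The lines are 5′ to 3′ on the strand of the gene, at chr7:140967826-140968125 (plus strand) for Ifitm1, chr7:140955912-140956211 (minus) for Ifitm2, chr7:141010695-141010994 (minus) for Ifitm3 and chr7:141016843-141017142 (minus) for Ifitm6. All 4 RefSeq starts lie inside the gene spans of GENCODE given above, close to the outer edge for Ifitm2 and Ifitm3 and farther in for Ifitm1 and Ifitm6. Capitals mark matches to 3 motifs on either strand: the core of the interferon-stimulated response element (ISRE), the gamma-activated site (GAS), to which STAT dimers bind, and the TATA box.
Ifitm1: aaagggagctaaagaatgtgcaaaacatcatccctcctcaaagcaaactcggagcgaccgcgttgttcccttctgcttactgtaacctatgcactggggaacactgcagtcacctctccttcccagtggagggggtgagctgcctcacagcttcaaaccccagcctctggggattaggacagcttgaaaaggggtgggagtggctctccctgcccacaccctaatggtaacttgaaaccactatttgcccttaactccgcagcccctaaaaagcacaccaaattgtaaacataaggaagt
Ifitm2: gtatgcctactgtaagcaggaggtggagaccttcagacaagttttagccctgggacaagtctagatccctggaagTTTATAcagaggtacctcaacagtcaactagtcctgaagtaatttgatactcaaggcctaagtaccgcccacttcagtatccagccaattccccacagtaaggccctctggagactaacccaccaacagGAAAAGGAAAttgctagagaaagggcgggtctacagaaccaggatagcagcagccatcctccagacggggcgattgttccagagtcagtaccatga
Ifitm3: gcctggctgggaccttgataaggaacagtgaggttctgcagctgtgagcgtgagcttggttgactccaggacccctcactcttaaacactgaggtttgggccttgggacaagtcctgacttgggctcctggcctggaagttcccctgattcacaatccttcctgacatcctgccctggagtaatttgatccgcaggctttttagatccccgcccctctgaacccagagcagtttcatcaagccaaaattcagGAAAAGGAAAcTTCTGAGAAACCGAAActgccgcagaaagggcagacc
Ifitm6: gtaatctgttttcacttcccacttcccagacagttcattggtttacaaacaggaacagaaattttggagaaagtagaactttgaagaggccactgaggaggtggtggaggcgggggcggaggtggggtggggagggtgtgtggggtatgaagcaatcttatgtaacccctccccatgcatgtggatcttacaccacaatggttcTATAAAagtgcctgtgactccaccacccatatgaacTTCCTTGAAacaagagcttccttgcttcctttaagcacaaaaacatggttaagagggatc

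The ISRE core was searched as GAAANNGAAA and was present in 3.44% of the 32851 promoter windows of the table. Ifitm3 held 2 matches, at 2 to 11 and 19 to 28, counted from the annotated start as position 0, and Ifitm2 held 1, at -46 to -37. The GAS letters, TTCNNNGAA, were present in 8.30% of windows. Ifitm3 had a match at 13 to 21, which overlaps its second ISRE core, and Ifitm6 had one at -10 to -2. TATAAA, in 13.6% of windows, occurred in Ifitm6 at -46 to -41 and on the other strand in Ifitm2 at -175 to -170. The Ifitm6 window thus held GAS and TATA letters and no ISRE core, and the Ifitm1 window held none of the 3. A match describes the letters only, and a window without one says nothing about binding elsewhere.

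The family was abundant in both groups, and all 4 levels were lower in Sdc1-/-, one of them far more than the others. Ifitm6 was 4.32-fold lower, while Ifitm1, Ifitm2 and Ifitm3 were lower by 12.5% to 18.8%. In WT each member stood at or above percentile 98.5 of all genes in the table.

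Ifitm6 had values of 257, 273 and 285 in WT and 61.9, 63.5 and 63.3 in Sdc1-/-. The groups lay far apart and the Sdc1-/- libraries were nearly equal. The means were 272 ± 13.9 (SD, n = 3) and 62.9 ± 0.885 (SD, n = 3), a log2 fold change of -2.09 (SE 0.042). On the log2(value + 1) scale, which understates changes of low genes, this was rank 16 from the lowest among the 12155 genes tested. By level, its rank among all genes was 506 in WT and 2081 in Sdc1-/-.

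Ifitm2, which is found mainly in endosomal membranes, was the most abundant member in every library. It had values of 579, 523 and 574 in WT and 461, 450 and 450 in Sdc1-/-. The lowest WT library was above the highest Sdc1-/- library. The means were 559 ± 30.7 (SD, n = 3) and 454 ± 6.28 (SD, n = 3), and the log2 fold change was -0.30 (SE 0.044).

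Ifitm1, the member that resides at the plasma membrane, had values of 278, 265 and 272 in WT and 235, 231 and 229 in Sdc1-/-. The groups again did not overlap. The means were 272 ± 6.50 (SD, n = 3) and 231 ± 3.34 (SD, n = 3), with a log2 fold change of -0.23 (SE 0.030).

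Ifitm3, the best known of the family for restricting influenza virus, had values of 268, 253 and 270 in WT and 238, 230 and 225 in Sdc1-/-. All WT libraries were above all Sdc1-/- libraries, by the smallest margin of the family. The means were 264 ± 9.75 (SD, n = 3) and 231 ± 6.47 (SD, n = 3), with a log2 fold change of -0.19 (SE 0.038).

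**Figure D1:**
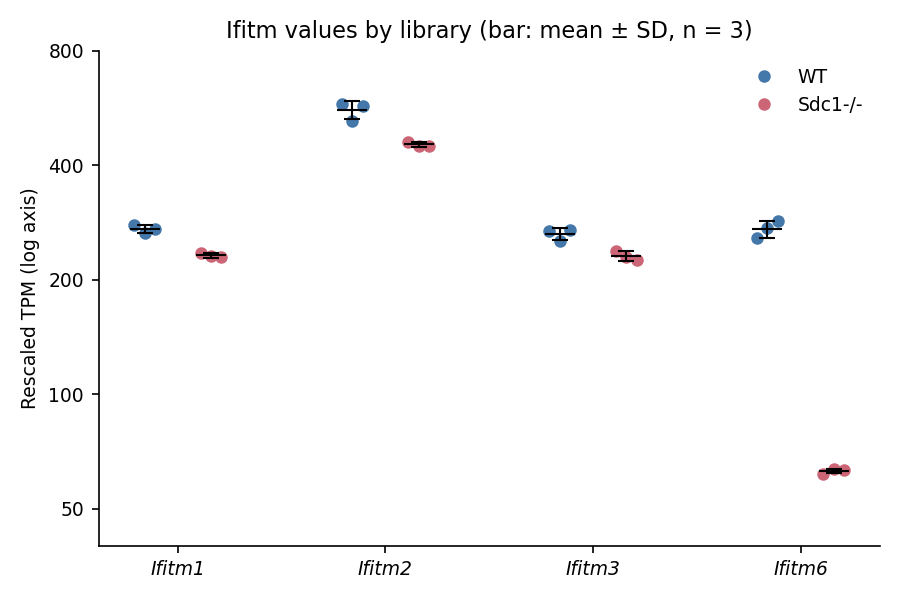
Rescaled TPM of the 4 Ifitm genes (log axis) in each library, with the 3 WT and the 3 Sdc1-/- libraries side by side; bars are the mean and SD of 3 libraries. Ifitm6 goes from 272 to 62.9, while the other genes are lower by 12.5% to 18.8%.

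All 4 members thus had groups that did not overlap, with Sdc1-/- lower, which held for 34.2% of all tested genes. That count, the choice of the members and the rescaling all rest on this contrast, so nothing is read from it. In WT the order of levels was Ifitm2 first, followed by Ifitm1, Ifitm6 and Ifitm3, whose ranges overlapped. In Sdc1-/- it was Ifitm2, then Ifitm1 and Ifitm3 at overlapping values, then Ifitm6 well below them. In bulk RNA, fewer cells with the transcript and less of it per cell cannot be told apart.

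The small differences of Ifitm1, Ifitm2 and Ifitm3 depended on how libraries were scaled, and that of Ifitm6 barely did. With a sum of 1000000 per library the log2 fold changes were -0.083 for Ifitm1, -0.15 for Ifitm2, -0.043 for Ifitm3 and -1.95 for Ifitm6. The SE of Ifitm3 was then 0.036. Relative to the median of all tested genes they were -0.22, -0.29, -0.18 and -2.08 in that order as deposited, and -0.20, -0.27, -0.17 and -2.07 with the fixed sum. Over all 15 fits the log2 fold change of Ifitm6 lay between -2.13 and -1.95, and that of Ifitm3 between -0.22 and -0.043.

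**Figure D2:**
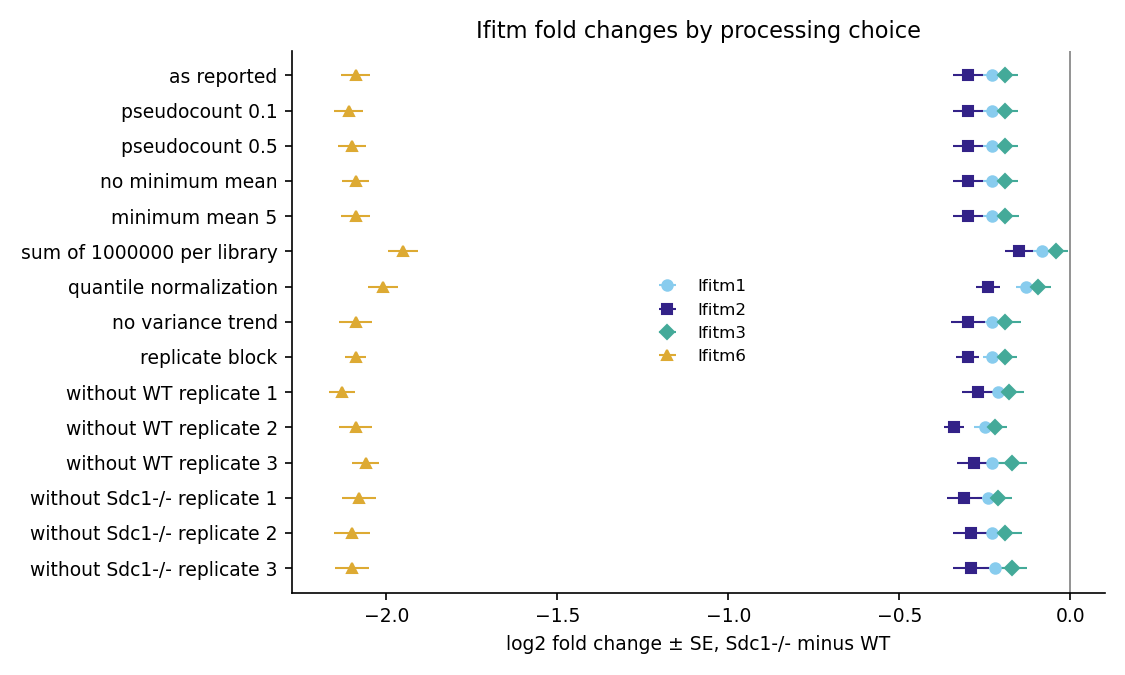
Log2 fold change with SE of each Ifitm gene (x axis) under the reported processing and the 14 alternatives (y axis), from 3 libraries a group or 2 where one was left out. Ifitm6 stays between -2.13 and -1.95, and Ifitm1, Ifitm2 and Ifitm3 come closest to 0 with a sum of 1000000 per library.

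Ratios between members of 1 library do not depend on a scaling by a constant factor per library. They were not computed under quantile normalization, which is not such a scaling. Ifitm6 divided by Ifitm3 was 0.959, 1.08 and 1.05 in WT and 0.260, 0.276 and 0.282 in Sdc1-/-. Ifitm6 was thus level with Ifitm3 in WT and well below it in Sdc1-/-. Ifitm1 divided by Ifitm3 was 1.03 ± 0.0224 (SD, n = 3) in WT and 1.00 ± 0.0139 (SD, n = 3) in Sdc1-/-, and the ranges overlapped. Ifitm2 divided by Ifitm3 was 2.12 ± 0.0427 (SD, n = 3) and 1.96 ± 0.0328 (SD, n = 3).

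The sum of the 4 members was 1383, 1314 and 1401 in WT and 995, 974 and 967 in Sdc1-/-, so that the Sdc1-/- mean was 0.717 of the WT mean. Without Ifitm6 the ratio of the sums was 0.837. With a sum of 1000000 per library these ratios were 0.794 and 0.928. Ifitm6 made up 18.6%, 20.8% and 20.3% of the family sum in WT and 6.22%, 6.52% and 6.55% in Sdc1-/-. The share of Ifitm2 went from 40.9% ± 1.02 (SD, n = 3) to 46.3% ± 0.186 (SD, n = 3), and those of Ifitm1 and Ifitm3 both reached 23.6%. A fall in 1 share raises the others by construction.

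**Figure D3:**
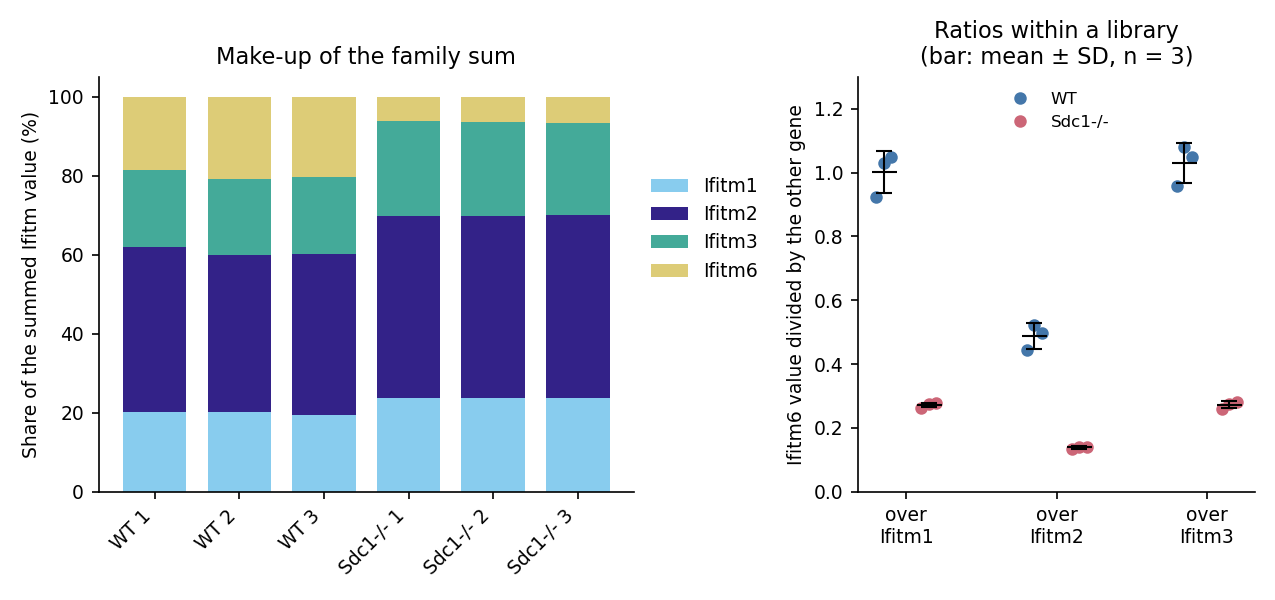
Left, share of each Ifitm gene in the family sum (%, stacked bars from 0) in each library; right, the Ifitm6 value divided by that of Ifitm1, Ifitm2 or Ifitm3, with points for libraries and bars for the mean and SD of 3. Ifitm6 goes from 19.9% of the sum in WT to 6.43% in Sdc1-/-, and every ratio is lower in Sdc1-/-.

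The other relatives were scarcely transcribed in these cells. Of 14 listed genes of the CD225 family found in the table, the 4 members had a mean of at least 1 and the other 10 did not. Ifitm5, an osteoblast protein, had means of 0.268 in WT and 0.494 in Sdc1-/-. Ifitm7 had 0.255 and 0.165, and Ifitm10 had 0.443 and 0.146. Of the genes related through the CD225 domain, Prrt1 stood at 0.624 and 0.323 and Tmem91 at 0.338 and 0.352. Prrt2, Syndig1l and Tmem233 were below 0.1 in both groups, and Syndig1 and Trarg1 were listed at 0 in every library.

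Near-identical copies limit how well reads of some members can be assigned. Of the words of 31 bases in their transcripts, the length at which kallisto matches reads by default, 100% were unique to the gene for Ifitm6, 88.4% for Ifitm1, 79.5% for Ifitm3 and 44.5% for Ifitm2. Ifitm2 shared 53.3% of its words with genes outside the family, mainly predicted genes such as Gm45717 and Gm11951. Such genes had at most 1.34 in any library, the value of Gm11951 in WT replicate 1. The level of Ifitm2 is the least certain of the 4, and the transcripts of Ifitm6 share no word with any other gene.

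Profiles across the 6 libraries were compared by the root mean square difference of log2 values centred on each gene, which the contrast between groups dominates. Among 5062 other genes with a mean of at least 20, the nearest to Ifitm6 was Il1r2, the decoy receptor of interleukin-1 (difference 0.068). Il1r2 had values of 86.5, 86.2 and 87.2 in WT and 20, 20.4 and 18.1 in Sdc1-/-. The next was Ccl6, a chemokine of myeloid cells (0.11), and Il1r2 was the only gene within 0.1. By contrast, 1644 genes lay within 0.1 of Ifitm1, 1127 of Ifitm2 and 1618 of Ifitm3. Their nearest genes were Got2 and Myl6 for Ifitm1, Atp2a3 and Rab1b for Ifitm2, and Acd for Ifitm3, at differences of 0.0058 to 0.017. Within the family, Ifitm1, Ifitm2 and Ifitm3 were 0.029 to 0.058 apart and 0.90 to 0.95 from Ifitm6.

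Genes around the cluster on chromosome 7 moved both ways or did not pass the test. Of 18 other tested genes within 250 kb, 3 rose, 6 fell and 9 did not pass the test, where 29.3% of all tested genes rose and 31.3% fell. They had a median log2 fold change of -0.066 against -0.0097 for all tested genes. Nlrp6, an inflammasome receptor that starts 97.0 kb from the Ifitm6 start, fell the most. It had values of 32.8, 31.2 and 31.7 in WT and 14.3, 14.4 and 14.1 in Sdc1-/- (log2 fold change -1.11, SE 0.036, adjusted p = 1.6e-06 by limma). Pgghg, an enzyme that trims glucose from hydroxylysine-linked sugars, lies between Nlrp6 and the cluster and rose (0.53, SE 0.075, adjusted p = 0.00081 by limma). Of the 11 tested genes of a list of 12 neighbours, 1 rose, 3 fell and 7 did not pass, the last of the fallen being Psmd13, a proteasome subunit, whose call (log2 fold change -0.10, adjusted p = 0.036 by limma) was lost in most alternatives and whose sign turned with a sum of 1000000 per library (0.043). Rnh1, the ribonuclease inhibitor, fell (-0.50, SE 0.051, adjusted p = 0.00018 by limma). Sigirr and Ptdss2, on the other side of Ifitm6, had log2 fold changes of -0.0002 and -0.019.

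**Figure D4:**
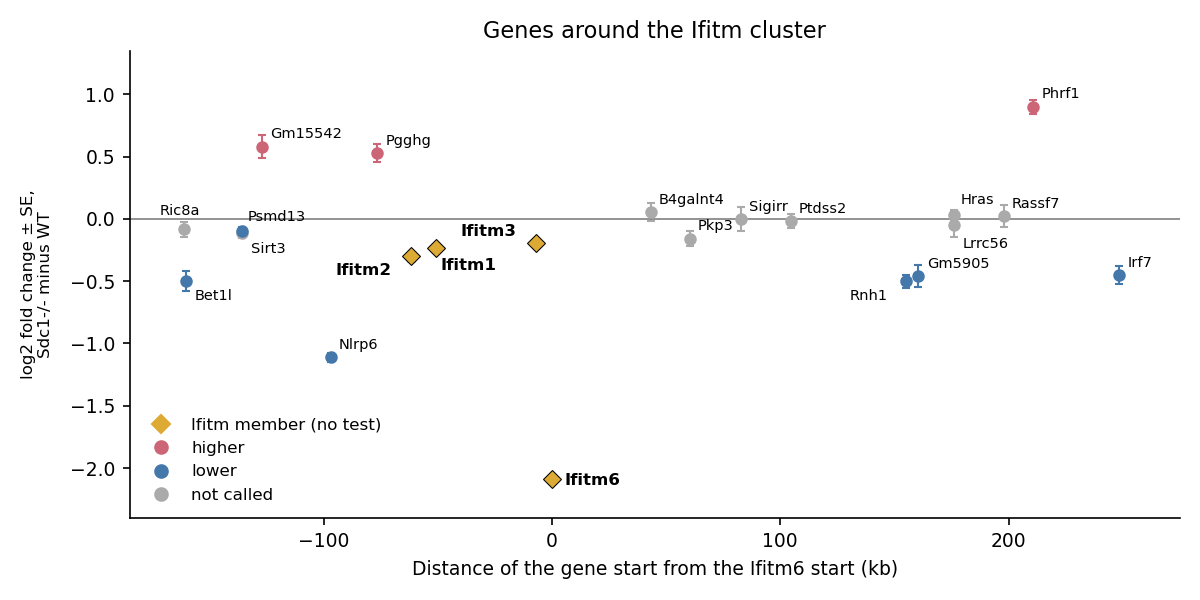
Log2 fold change with SE of the Ifitm genes (diamonds) and of the 18 other tested genes within 250 kb (circles, coloured by call), against the distance of each gene start from that of Ifitm6 in kb. Ifitm6 at -2.09 stands below every neighbour, the nearest in value being Nlrp6 at -1.11.

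The ligands that induce Ifitm genes were at or near 0. Of 10 interferon genes, 8 were listed at 0 in every library. Ifnb1 was above 0 in 2 WT libraries (0.0316 and 0.0412) and Ifng in 1 (0.0974), and both were listed at 0 in all Sdc1-/- libraries. None reached the mean needed for the test.

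Genes of interferon signalling moved both ways. Of 11 tested genes for interferon receptors, JAK kinases and STAT factors, 4 rose and 5 fell (36.4% and 45.5%, against 29.3% and 31.3% of all tested genes), with a median of -0.12. Those that fell were the receptor chains Ifngr1, Ifngr2 and Ifnar2 and the kinases Jak1 and Jak2. Ifngr1, the ligand-binding chain of the interferon gamma receptor, had 124, 135 and 135 in WT and 84.1, 88.7 and 88.4 in Sdc1-/- (log2 fold change -0.59, SE 0.043, adjusted p = 3.6e-05 by limma). Its partner Ifngr2 fell by 0.55 on the log2 scale (SE 0.091, adjusted p = 0.0017 by limma). Among those that rose were the kinase Tyk2 and the factors Stat2 and Irf9, which take part in the complex that binds the ISRE. Stat2 went from 3.50, 3.26 and 3.72 to 6.61, 6.83 and 6.59 (log2 fold change 0.77, SE 0.058, adjusted p = 4.1e-05 by limma). Ifnar1 did not pass the test (-0.048, SE 0.054).

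Of 9 tested genes for interferon regulatory factors and feedback inhibitors, 2 rose and 3 fell (22.2% and 33.3%), shares near the 29.3% and 31.3% of all tested genes. Irf3, a factor that starts interferon transcription, rose from 38.1 ± 3.96 (SD, n = 3) to 68.0 ± 1.23 (SD, n = 3), with a log2 fold change of 0.82 (SE 0.073, adjusted p = 8.7e-05 by limma), and Irf1 rose by less (0.34, SE 0.061). Irf7, which amplifies the type I response and lies 248.6 kb from the Ifitm6 start, fell by 0.45 on the log2 scale (SE 0.070, adjusted p = 0.0012 by limma). Ptpn6, a phosphatase that damps JAK signals, fell from 121 to 89.1, and Socs1 fell from 9.07 to 7.30. Ptpn2 did not pass (-0.11, adjusted p = 0.065 by limma), and its sign turned with a sum of 1000000 per library (0.039).

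Other interferon-stimulated genes, the class to which Ifitm1, Ifitm2 and Ifitm3 belong, also rose in part and fell in part. Of 37 tested among 46 listed, 14 rose and 11 fell (37.8% and 29.7%, against 29.3% and 31.3% of all tested genes), and 12 did not pass. Their median log2 fold change was 0.052, and their summed level was 801 to 822 in WT and 764 to 772 in Sdc1-/-. Zbp1, a sensor of Z-form nucleic acid, fell the most (5.26, 4.45 and 4.40 to 2.06, 1.91 and 1.93, log2 fold change -0.94, SE 0.077, adjusted p = 6.1e-05 by limma). Rsad2, the antiviral enzyme viperin, and Cmpk2, its neighbour in the genome, fell by 0.81 (SE 0.17) and 0.63 (SE 0.13) on the log2 scale. Samhd1, which depletes nucleotides, fell from 68.4 to 45.4. Parp14, an ADP-ribosyltransferase, rose (0.60, SE 0.055, adjusted p = 0.00010 by limma), as did Bst2, the membrane tether of budding viruses, from 74.7 to 96.3. The most abundant of the list, Psmb8 (150 in WT) and Ifi47 (130 in WT), fell by 0.23 and 0.25 on the log2 scale, sizes like those of Ifitm1 and Ifitm2. With a sum of 1000000 per library they were at -0.08 for Psmb8, which then did not pass (adjusted p = 0.081 by limma), and -0.10 for Ifi47, and with quantile normalization at -0.14 and -0.15. Ifit1, Ifit3 and Mx1, genes that interferon induces strongly, had means below 1 in both groups. Others of the list did not, such as Isg15 (4.98 in WT and 3.58 in Sdc1-/-), Ifit2 (3.38 and 3.6) and Oas1a (11.5 and 15.4). With a minimum mean of 5, 8 of the list rose and 7 fell, and with a sum of 1000000 per library 18 rose and 6 fell.

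Of 10 tested partners and modifying enzymes of Ifitm proteins, 3 rose, 2 fell and 5 did not pass. These shares (30% and 20%) stand beside 29.3% and 31.3% of all tested genes, and 5 rose with a sum of 1000000 per library or with quantile normalization. Cd81, a tetraspanin that binds Ifitm proteins, fell from 223 to 162 (log2 fold change -0.46, SE 0.029, adjusted p = 2.0e-05 by limma). Zmpste24, a protease that acts with Ifitm proteins against viruses, fell by 0.51 on the log2 scale (SE 0.050). Fyn, a kinase that phosphorylates a tyrosine of IFITM3, rose (0.60, SE 0.082, adjusted p = 0.00070 by limma), as did Setd7, a methyltransferase that acts on IFITM3 (0.40, SE 0.044), and Nedd4, a ubiquitin ligase that marks it for turnover (0.13, SE 0.036). Vcp, an ATPase that handles ubiquitinated IFITM3, had 231 and 229 and did not pass (-0.014, SE 0.028), but was higher with a sum of 1000000 per library (0.13, adjusted p = 0.0042 by limma) and with quantile normalization (0.082, adjusted p = 0.031 by limma).

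Markers of mature myeloid cells, and of several other lineages, moved with Ifitm6. The counts that follow stand beside 31.3% of all tested genes that fell and 29.3% that rose. All 14 genes of a neutrophil maturation list fell, with a median of -1.62, and their summed level was 13283 to 14218 in WT and 4767 to 4906 in Sdc1-/-, with none at 0. Mmp9, the gelatinase of tertiary granules, fell by 1.92 on the log2 scale (SE 0.12, adjusted p = 1.9e-05 by limma), and Lcn2, a protein of secondary granules, by 1.87 (SE 0.031, adjusted p = 3.1e-07 by limma). S100a8 and S100a9, the calprotectin subunits, had the highest levels of the list and fell from 5279 to 1859 and from 4031 to 1408. Of 8 tested monocyte genes, 7 fell and Cx3cr1 rose, with summed levels of 538 to 563 in WT and 239 to 248 in Sdc1-/-. All 8 genes of mast cells, basophils and eosinophils fell, with sums of 1105 to 1138 and 484 to 487. Of 9 erythroid genes, 6 fell and 2 rose, with a median of -0.76 and sums of 9626 to 10314 in WT and 5395 to 5771 in Sdc1-/-. The megakaryocyte list did not move this way as a whole. Of its 6 tested genes, 4 fell and 2 rose, with a median of -0.24. Its sums overlapped, at 490 to 517 in WT and 509 to 523 in Sdc1-/-. Vwf rose the most of these (1.63, SE 0.093), and Ppbp fell the most (-0.39, SE 0.063). Macrophage genes fell in 4 of 5 tested (sums 34.5 to 36.7 and 15.9 to 18.2), and dendritic cell genes in 3 of 4 (56.8 to 59.8 and 37.6 to 45). Early granule genes, all 6 of which fell, did so by less, with a median of -0.64. Of 10 stem and progenitor genes, 6 rose and 2 fell, with a median of 0.18. Meis1 rose the most (1.07, SE 0.043), and Ly6a, which encodes the Sca1 antigen, fell the most (-1.36, SE 0.093).

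Set against the summed neutrophil list, Ifitm6 was 19.1, 19.2 and 21.5 per 1000 in WT and 13, 12.9 and 13.1 in Sdc1-/-. Ifitm3 was 19.9, 17.8 and 20.4 per 1000 in WT and 49.9, 46.9 and 46.5 in Sdc1-/-. Relative to this sum, Ifitm6 was thus 1.53-fold lower in Sdc1-/- and Ifitm3 was 2.47-fold higher. S100a8, S100a9 and Ngp had the highest levels in the sum and fell 2.84-, 2.86- and 3.19-fold. By the ratio of means, Ifitm6 fell 4.32-fold. Mmp9 (4.84-fold) and Ly6g (4.45-fold) fell by more, and every other gene of the list fell by less. The part of the cell types of the sort in the level of Ifitm6 was not tested.

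**Figure D5:**
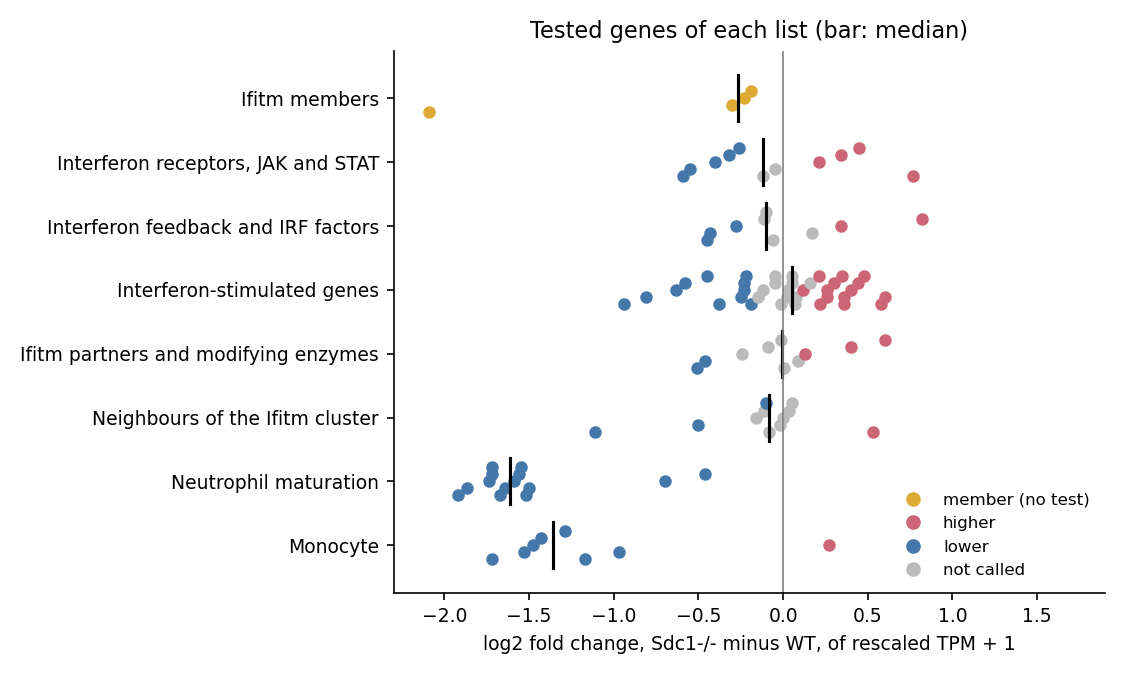
Log2 fold change (x axis) of each tested gene in the interferon, partner, neighbour, neutrophil and monocyte lists and of the 4 Ifitm genes, coloured by call, with a bar at the median of each list. On the log2(value + 1) scale, Ifitm6 at -2.09 lies below every gene of the lists, while Ifitm1, Ifitm2 and Ifitm3 lie among the interferon genes. By the ratio of the WT mean to the Sdc1-/- mean, Ifitm6 fell 4.32-fold. Ms4a6c (6.22), F13a1 (4.95), Mmp9 (4.84) and Ly6g (4.45), which have low levels, fell by more, and the other genes shown did not.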

How the data were processed

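RNA-seq libraries of 3 WT and 3 Sdc1-/- samples were grouped by their labels. The authors assigned single reads of stranded mRNA libraries to transcripts with kallisto and summarised them per gene for sleuth (version 0.30.0 and the build mm10 are named in the submitters' processing notes). The deposited table holds a signal per gene and library, TPM rescaled between libraries. The second deposited table holds the authors' own comparison (p, q, effect size with its error, means and variances) and was not used. The members and all gene lists were chosen with earlier results of these data known.

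From the deposited signal, limma 3.58.1 (R 4.3.3) was fitted to log2(value + 1) for the 12155 genes whose mean reached 1. The model held the group alone, eBayes used a variance trend, and p-values were adjusted by Benjamini-Hochberg over all tested genes, with a threshold of 0.05. Plain TPM had been assumed when the design was written, and limma was used for the rescaled values too. Fold changes are on the log2(value + 1) scale, which understates changes of low genes. The Ifitm genes were in the fit but are given without p-values. Symbols of 35454 of 36083 genes were taken from GENCODE M21 (GRCm38), and promoters from RefSeq. The fit was checked on simulated data. Named were the members and their relatives, Sdc1, up to 4 called genes of each list with the largest change and its 2 most abundant genes, and the 2 genes most like each member in profile. A few genes that this rule names are not reported here. Other genes in the text were named after their values had been seen. The 14 alternatives changed the pseudocount (0.1, 0.5), the minimum mean (none, 5), the scaling and the variance trend, added a replicate block, or left out 1 library. Python 3.11.15, pandas 2.3.3 and matplotlib 3.10.9 did the rest.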

Additional observations from a re-analysis of the deposited data

How the results depend on the processing

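The 4 Ifitm genes kept their direction in all 14 alternatives. With a sum of 1000000 per library, though, the change of Ifitm3 was near the size of its SE (-0.043, SE 0.036). Setting each library to a sum of 1000000 gave log2 fold changes of -0.083 (Ifitm1), -0.15 (Ifitm2), -0.043 (Ifitm3) and -1.95 (Ifitm6), ratios of 0.794 for the sum of the 4 members and 0.928 for that of Ifitm1, Ifitm2 and Ifitm3, and 2380 genes called lower. It also gave 6 interferon-stimulated genes called lower, 5 partners and 2 neighbours called higher, and turned the sign of Psmd13 (0.043), Ptpn2 (0.039) and Vcp (0.13). Quantile normalization gave -0.13, -0.24, -0.093 and -2.01 for the members in the same order, 5 partners called higher and 0.082 for Vcp. A minimum mean of 5 left 8 interferon-stimulated genes called higher and 7 called lower. Leaving out 1 library at a time gave log2 fold changes of -2.13 to -2.06 for Ifitm6, -0.34 to -0.27 for Ifitm2, -0.25 to -0.21 for Ifitm1 and -0.22 to -0.17 for Ifitm3, and 3106 to 3368 genes called higher and 3369 to 3594 called lower.

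Libraries with the same number share only that number (correlations of their deviations 0.151, -0.00828 and 0.0185). With the number as a replicate block, 3653 genes were higher and 3971 lower, and the log2 fold change of Ifitm6 was -2.09. Depth is unknown, so the counting error of low genes such as Ifnb1 cannot be given. The causes of these shifts were not tested.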
